A study of Homo sapiens with 30 samples.

Results

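The 6 genes described here, EWSR1, TAF15, TARDBP, HNRNPA1, HNRNPA2B1 and HNRNPDL, encode RNA-binding proteins with prion-like domains that are mutated in inherited disease of neurons or muscle. They were found by symbol among the 60664 genes of the count table, each once, and 5 of the 6 had counts. The study used Flp-In T-REx HEK293 cells, an established human embryonic kidney line with a docking site for a transgene. A pair of derived lines carried GFP-TIA1a, in its normal form (WT) or bearing the Welander distal myopathy change (WDM), so every group held a GFP-tagged TIA1a transgene. In each line, cytosol RNA was taken from untreated cells, from cells given tetracycline, and from cells given tetracycline plus 0.5 mM sodium arsenite for 60 min (6 groups). RNA of the granule fraction, a high-speed pellet captured by its GFP tag, was taken from both lines with tetracycline and with tetracycline plus arsenite (4 groups). Each of the 10 groups had 3 replicates, and the labels do not say whether these were separate cultures, so p-values measure the spread between these samples, which may be technical. The tetracycline dose, and whether a line is 1 clone, are not given in the sources used here, and no pull-down from cells without the GFP tag is among the 30 libraries.

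A prion-like domain is a disordered stretch with few kinds of amino acid that lets a protein self-associate, and it helps such proteins enter stress granules, the RNA-protein assemblies that form when translation stops under stress. TIA1 has a domain of this kind, which holds the Welander mutation. EWSR1 and TAF15 belong to the FET family of nuclear RNA-binding proteins, linked to amyotrophic lateral sclerosis and, through gene fusions, to sarcoma. TARDBP encodes TDP-43, which forms inclusions in amyotrophic lateral sclerosis and frontotemporal dementia. HNRNPA1 and HNRNPA2B1 encode splicing and mRNA transport factors mutated in multisystem proteinopathy, and HNRNPDL encodes a related protein mutated in a limb-girdle muscular dystrophy. The values below are of RNA counted at these genes, not of the proteins. The libraries were of total RNA and the counting settings are not given, so reads from introns of unspliced RNA may be included. The counts are therefore not read as levels of spliced mRNA.

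HNRNPA1 had 0 counts in all 30 libraries. The gene (ENSG00000135486, GRCh38 chromosome 12, 54280193 to 54287088, plus strand) lies with 100% of its span inside an unnamed lncRNA gene on the same strand (ENSG00000258344, 54276631 to 54345083), with which it shares no exon base. That lncRNA gene had 552 counts in all. Of 190 protein-coding genes placed in this way, wholly inside a same-strand span with no exon base shared, 190 had 0 counts. Of all 705 protein-coding genes wholly inside a same-strand span, 96.31% had 0 counts, against 5.53% of 13365 genes without same-strand overlap and 12.81% of 960 genes inside opposite-strand spans only. The count of 0 was therefore not read as a lack of HNRNPA1 RNA, and no fold or test is given for it. Whether reads were counted over whole gene spans, introns included, was not tested, for HNRNPA1 or for the other members.

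**Figure D1:**
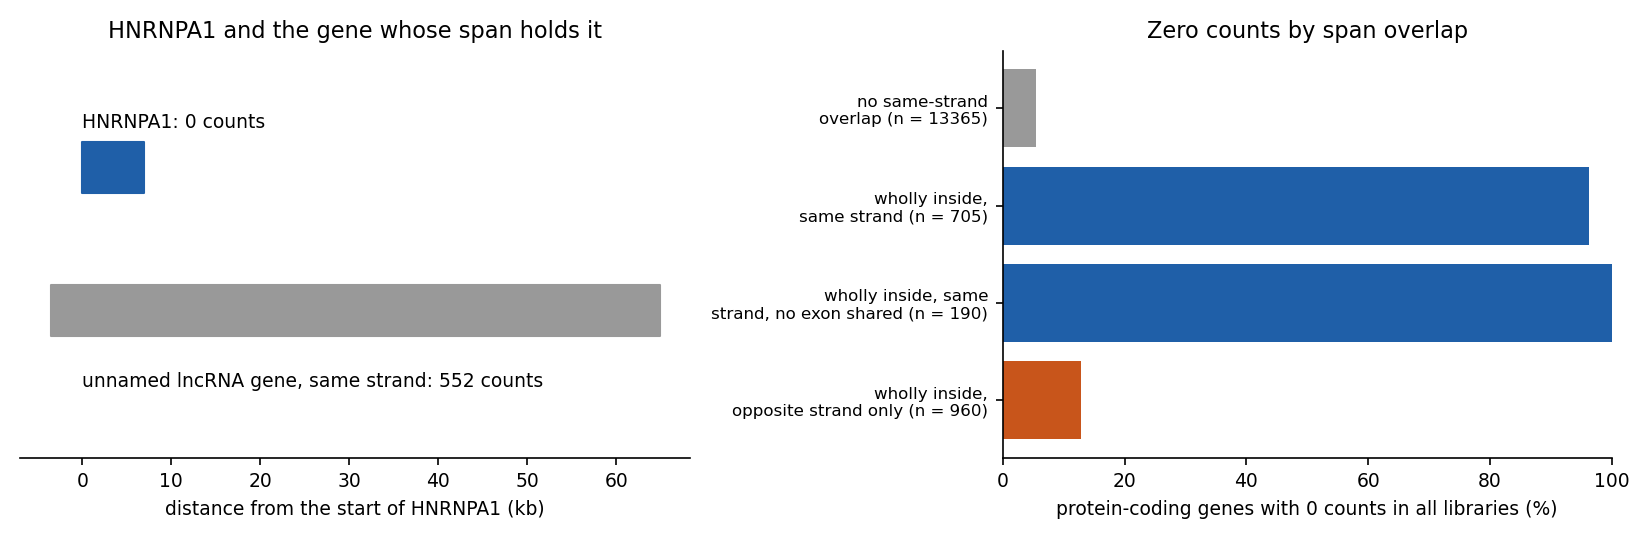
Left, the spans of HNRNPA1 and of the same-strand lncRNA gene around it, drawn to scale as distance in kb from the start of HNRNPA1, with their summed counts over 30 libraries (0 and 552). Right, bars give the percentage of protein-coding genes with 0 counts in all libraries for each kind of span overlap, 100% where the gene lies wholly inside a same-strand span with no exon shared and 5.53% without same-strand overlap.

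Reads were counted at genes named as processed copies of HNRNPA1 elsewhere in the genome. Of 76 genes named as its copies, 43 had counts, 9263 in all, and HNRNPA1P48 held 5592 and HNRNPA1P10 held 2699 of them. Over the 963 coding bases of the shorter HNRNPA1 form (ENST00000546500), HNRNPA1P48 was 99.38% identical with 6 mismatches and HNRNPA1P10 99.48% identical with 4 mismatches and 1 gap. The longest runs of identical bases were 373 and 301. The HNRNPA1P48 gene spans 51553436 to 51647132 on chromosome 16, and the aligned copy only 51645818 to 51646780. Its counts may therefore lie outside the copy. Reads that lie within an identical run cannot be told apart by sequence, and the copies' level was not used in place of the gene's. In sum the copies had group means of 27.8 to 33.6 CPM (counts scaled to a common library total) in cytosol and 9.16 to 10.3 CPM in the granule fraction. The other genes had few or no copies with counts: 28 counts at 3 copies of TARDBP, 2 counts at 4 copies of HNRNPDL, and no copies named for EWSR1, TAF15 or HNRNPA2B1.

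The 5 counted genes were well covered, with 39593 counts for TAF15 to 155645 for EWSR1 over all libraries. Merged exons made up 24.7% of the GENCODE release 44 span of TAF15, 31.8% of EWSR1 and 34% of TARDBP. For HNRNPA2B1 they made up 41.5% and for HNRNPDL 70%. The part of intron reads in the counts was not tested. EWSR1 (ENSG00000182944) lies at 29268009 to 29300525 on chromosome 22, and TARDBP (ENSG00000120948) at 11012344 to 11030528 on chromosome 1, both on the plus strand. HNRNPA2B1 (ENSG00000122566, chromosome 7, 26171151 to 26201529) and HNRNPDL (ENSG00000152795, chromosome 4, 82422565 to 82430462) are on the minus strand. TAF15 (ENSG00000270647, chromosome 17, plus strand) spans 35713791 to 35864615 in the table, where 22.55% of the span is shared with other genes on its strand, but starts at 35809482 in GENCODE release 44. TAF15 counts are less certain for that reason. The table's span is 150825 bases against 55134 in release 44, with 13607 bases of merged exons. The 24.7% given for TAF15 therefore does not describe the span in the table. The span of HNRNPA2B1 lies for 52.6% opposite NFE2L3 and that of TARDBP for 22% opposite MASP2, on the other strand.

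Libraries held 5906167 to 27419145 counts, and a count of 0 allows up to 3, or 0.109 to 0.508 CPM, for counting error only. The epithelial genes KRT8, KRT18, KRT19 and EPCAM had group means of 15.1 to 169 CPM and CDH1 4.29 to 9.78 CPM. Of the embryonic kidney genes, PAX2 reached 14.5 and LHX1 3.99 CPM, whereas PAX8 stayed at or under 0.0828 CPM. Markers of other cells were low: PTPRC, CD3E and HBB (blood) at or under 0.15 CPM, PECAM1 and CDH5 (endothelium) at or under 0.653, ALB (liver) at or under 0.576, and COL1A1 and COL3A1 (fibroblast) 1.19 to 7.92 CPM. A set of 8 noncoding RNAs taken as nuclear was summed: NEAT1, MALAT1, MEG3, KCNQ1OT1, FTX, OIP5-AS1, PVT1 and GAS5. They are called nuclear RNAs here, but where each lies in these cells was not tested, and 1 had 0 counts. Their sum had group means of 589 to 1159 CPM in cytosol and 3478 to 3935 CPM in the granule fraction. Cytosol libraries with tetracycline differed within their groups in this sum, at 839, 478 and 451 CPM in WT replicates 1, 2 and 3 and at 1037, 653 and 923 CPM in WDM.

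In untreated WT cytosol HNRNPDL was the most abundant of the 5 per length. Per kb of longest transcript its level was 91.0 ± 1.5 CPM (SD, n = 3), followed by EWSR1 at 53.7 ± 2.51, TARDBP at 31.5 ± 1.12, HNRNPA2B1 at 28.8 ± 1.11 and TAF15 at 13.9 ± 0.186. No neighbours in this order overlapped, and the order was the same per kb of merged exons or of gene span. HNRNPDL led and TAF15 came last in all 6 cytosol groups, with overlap between HNRNPDL and EWSR1 only in arsenite-treated WDM cells. TARDBP and HNRNPA2B1 changed places between groups per kb of longest transcript, and overlapped in both groups treated with tetracycline alone. Per kb of merged exons the mean of TARDBP was above that of HNRNPA2B1 in all 6 cytosol groups, so this change depends on the length used. In the granule fraction the levels lay closer together. With tetracycline EWSR1 led at 46.0 ± 6.71 in WT and 40.5 ± 4.83 in WDM per kb of transcript, overlapping the next genes. With arsenite HNRNPA2B1 led at 47.8 ± 3.80 in WT and 53.1 ± 7.88 in WDM, above every library of the next gene, TARDBP, at 35.1 ± 2.17 and 32.6 ± 4.25. Per kb of merged exons HNRNPDL had the highest mean in WDM granules with tetracycline and in WT granules with arsenite. Per kb of gene span HNRNPDL led in all 4 granule groups, so this order depends on the length used.

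**Figure D2:**
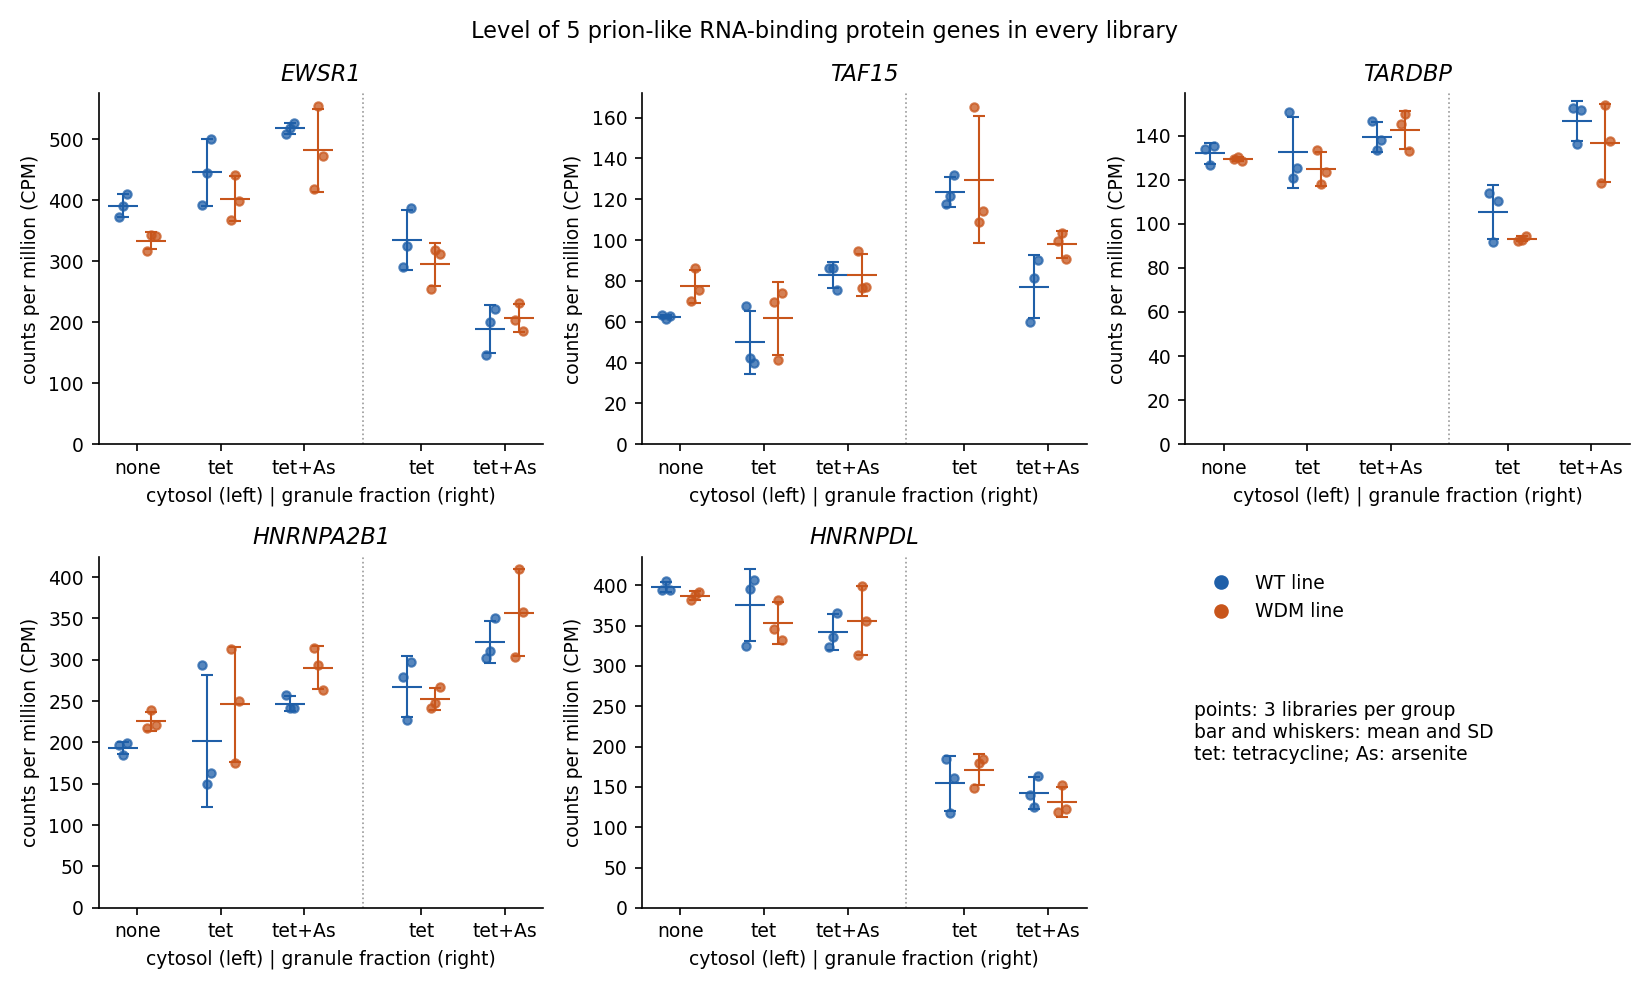
Level of each counted gene in CPM (vertical axis, from 0) in the 10 groups, with cytosol left of the dotted line and the granule fraction right of it. Points are libraries, horizontal bars means and whiskers SD of 3 libraries. HNRNPDL lies between 313 and 406 CPM in every cytosol library and between 118 and 184 CPM in every granule library.

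The granule fraction was compared with cytosol first, to see for which of these genes the pull-down held RNA relative to the extract. In tetracycline-treated cells of both lines TAF15 was higher in the granule fraction, and EWSR1, TARDBP and HNRNPDL were lower. Fold changes are relative to the other RNA of the same libraries, not amounts. Of all genes tested, 75.3% in WT and 75.7% in WDM had a lower fold change than TAF15. These shares were 36.6% and 36.0% for EWSR1, 38.9% and 36.6% for TARDBP, and 17.6% and 20.7% for HNRNPDL. A gene is called here at a Benjamini-Hochberg adjusted p under 0.05 in edgeR's quasi-likelihood test. By this rule 4 of the 5 genes were called in WT, where 75.7% of 18141 genes tested were called, and 4 of 5 in WDM, where 71.1% were, so the members' shares are near the background. TAF15 had 118, 122 and 132 CPM in the granule libraries of WT cells and 67.8, 42.4 and 39.7 CPM in cytosol. Every granule library lay above every cytosol library, with a log2 fold change of 1.28 (SE 0.184, edgeR adjusted p 3.98e-07). In WDM cells TAF15 had 165, 109 and 114 CPM in granules and 69.9, 41.2 and 74.0 CPM in cytosol (log2 1.05, SE 0.183, edgeR adjusted p 8.89e-06), again without overlap. The 8 nuclear RNAs moved in the same direction, with a median log2 of 3.07 in WT and 2.62 in WDM over the 6 that were tested, and 5 of 6 called higher in each (1 lower in WDM). Their part in the TAF15 result was not tested.

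HNRNPDL was the most depleted of the 5 genes with tetracycline. In WT cells it had 184, 118 and 161 CPM in the granule fraction against 324, 395 and 406 CPM in cytosol. Granule and cytosol values were far apart in both lines, and log2 fold changes were -1.33 (SE 0.173, edgeR adjusted p 6.09e-08) in WT and -1.04 (SE 0.171, edgeR adjusted p 3.85e-06) in WDM. EWSR1 had 291, 325 and 388 CPM in WT granules against 392, 445 and 501 CPM in cytosol, with no overlap. Its log2 fold change was -0.45 in both lines (SE 0.169 in each, edgeR adjusted p 0.0168 in WT and 0.0194 in WDM). TARDBP was lower by log2 fold changes of -0.37 (SE 0.131, edgeR adjusted p 0.0121) in WT and -0.43 (SE 0.131, edgeR adjusted p 0.00499) in WDM. HNRNPA2B1 was not called, at log2 0.37 (SE 0.197) in WT and 0.03 (SE 0.197) in WDM. The EWSR1 call was lost without cytosol replicate 3 or granule replicate 1 in WT (edgeR adjusted p 0.0898 and 0.0913) and without cytosol replicate 2 or granule replicate 1 in WDM (0.0778 and 0.107). In WT, TARDBP lost its call without granule replicate 2 (log2 -0.30, edgeR adjusted p 0.0666), and HNRNPA2B1 was called higher without cytosol replicate 1 (log2 0.67, edgeR adjusted p 0.00218).

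In arsenite-treated cells EWSR1 and HNRNPDL were lower in the granule fraction than in cytosol in both lines, and the other 3 were not called. These are 2 of 5 genes in WT, where 70.5% of all genes were called, and 2 of 5 in WDM, where 72% were. EWSR1 had 146, 201 and 222 CPM in WT granules and 508, 518 and 527 CPM in WT cytosol. All 3 granule libraries were lower than any cytosol library by a wide gap, with a log2 fold change of -1.45 (SE 0.172, edgeR adjusted p 1.67e-08). In WDM it had 204, 232 and 186 CPM in granules and 419, 555 and 472 CPM in cytosol (log2 -1.28, SE 0.171, edgeR adjusted p 1.47e-07). HNRNPDL was lower by log2 -1.25 (SE 0.172, edgeR adjusted p 2.26e-07) in WT and -1.5 (SE 0.173, edgeR adjusted p 1.01e-08) in WDM. TAF15 lay at log2 -0.10 (SE 0.18) in WT and 0.18 (SE 0.179) in WDM, and its granule and cytosol libraries overlapped in both lines. TARDBP was at 0.08 and -0.12, and HNRNPA2B1 at 0.38 and 0.24. HNRNPA2B1 in WT was called higher with RLE factors (edgeR adjusted p 0.0467), without the low-count filter (0.00648) or when only the 6 libraries compared were fitted (0.00561).

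**Figure D3:**
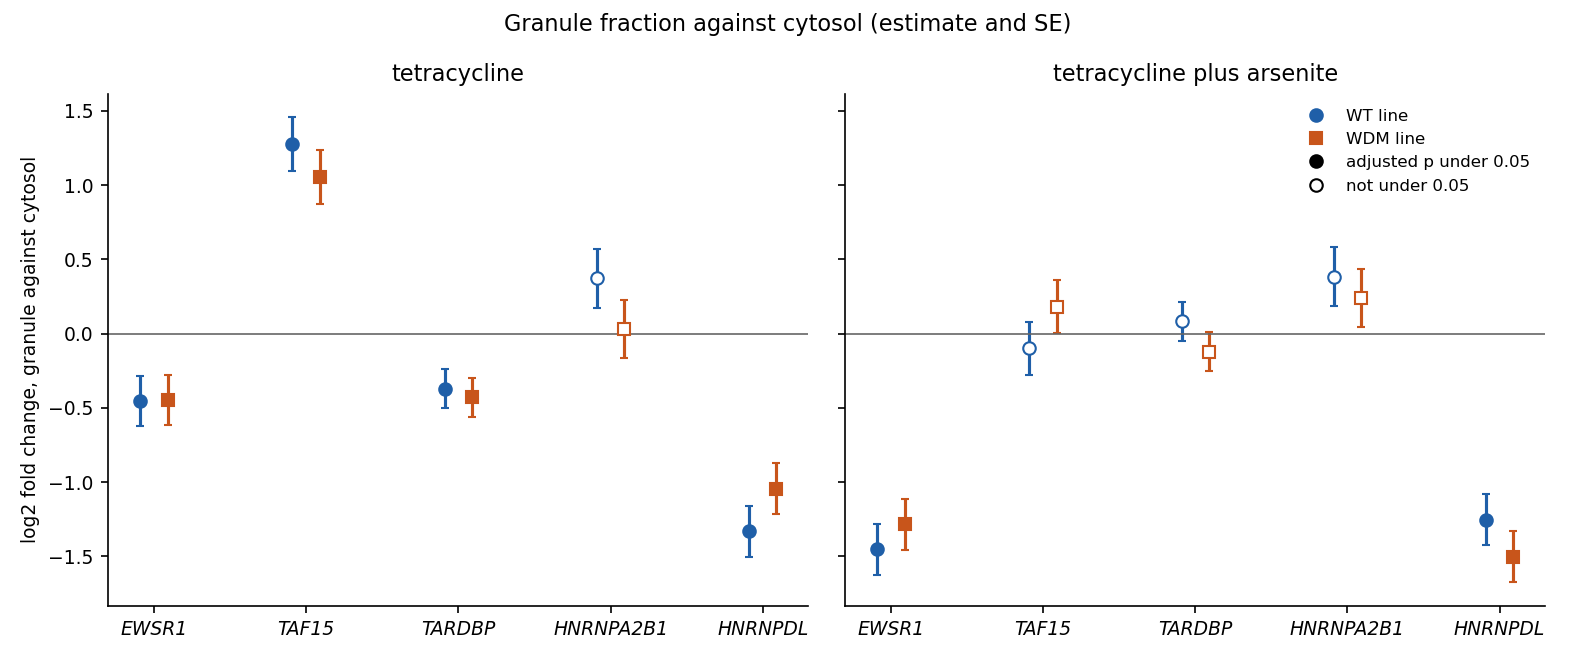
Log2 fold change of the granule fraction against cytosol (vertical axis) for each counted gene, with tetracycline on the left and tetracycline plus arsenite on the right. Points are edgeR estimates and whiskers SE, filled where the adjusted p is under 0.05; TAF15 lies at 1.28 and 1.05 on the left and at -0.10 and 0.18 on the right.

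The difference between these enrichments, with arsenite minus without, was tested as an interaction. EWSR1 and TAF15 fell in the granule fraction relative to cytosol in both lines, and no other counted gene was called. The 2 called of 5 compare with 31.4% of all genes called in WT and the 2 of 5 in WDM with 24.1%, and the median of all genes was itself below 0, at -0.21 in WT and -0.17 in WDM. EWSR1 changed by log2 -0.998 (SE 0.239, edgeR adjusted p 0.00232) in WT and -0.83 (SE 0.239, edgeR adjusted p 0.0114) in WDM. TAF15 changed by -1.38 (SE 0.256, edgeR adjusted p 0.000252) in WT and -0.87 (SE 0.255, edgeR adjusted p 0.0132) in WDM. Both calls in WT were made in all 18 alternative fits. In WDM the EWSR1 call was lost without arsenite cytosol replicate 2 (log2 -0.67, edgeR adjusted p 0.0564) and the TAF15 call without tetracycline cytosol replicate 2 (-0.64, 0.0558). TARDBP was at 0.45 (SE 0.185, edgeR adjusted p 0.0601) in WT and was called there without arsenite granule replicate 2 (log2 0.54, edgeR adjusted p 0.0315), and with RLE factors (0.0454), without the low-count filter (0.0238) or in DESeq2 (0.026). The nuclear RNAs also fell, with a median of -1.5 in WT (5 of 6 called lower) and -1.08 in WDM (3 of 6), and their part in these results was not tested.

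Arsenite was then examined within the granule fraction. EWSR1 and TAF15 fell and TARDBP rose in both lines, and in WDM HNRNPA2B1 rose and HNRNPDL fell as well. In WT 3 of 5 genes were called, against 30.6% of 18366 genes tested, and in WDM 5 of 5, against 36.3%. The medians of the 5 genes were -0.09 in WT and -0.45 in WDM, beside -0.03 and 0.01 over all genes tested. EWSR1 went in WT from 291, 325 and 388 CPM to 146, 201 and 222 CPM, and in WDM from 254, 318 and 312 CPM to 204, 232 and 186 CPM. No arsenite library reached the lowest library without arsenite in either line. The log2 fold changes were -0.81 (SE 0.17, edgeR adjusted p 0.000827) and -0.58 (SE 0.17, edgeR adjusted p 0.0093). TAF15 went in WT from 118, 122 and 132 CPM to 60.1, 81.3 and 90.4 CPM (log2 -0.67, SE 0.162, edgeR adjusted p 0.00275). In WDM it went from 165, 109 and 114 CPM to 99.6, 104 and 90.8 CPM (log2 -0.46, SE 0.161, edgeR adjusted p 0.027), where replicate 1 without arsenite stood above the rest.

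TARDBP rose in WT from 114, 91.5 and 110 CPM to 153, 136 and 151 CPM, a log2 fold change of 0.50 (SE 0.157, edgeR adjusted p 0.0163). In WDM it rose from 92.3, 92.8 and 94.5 CPM to 118, 154 and 138 CPM (log2 0.49, SE 0.157, edgeR adjusted p 0.0155). The groups did not overlap in either line. HNRNPA2B1 went from 279, 227 and 297 CPM to 302, 311 and 350 CPM in WT, where it was not called (log2 0.28, SE 0.164, edgeR adjusted p 0.193) although the groups did not overlap. In WDM it rose from 242, 248 and 267 CPM to 303, 409 and 358 CPM (log2 0.44, SE 0.164, edgeR adjusted p 0.0369). HNRNPDL fell in WDM from 149, 180 and 184 CPM to 119, 153 and 122 CPM (log2 -0.45, SE 0.177, edgeR adjusted p 0.0499), with overlap between the groups. In WT it was at log2 -0.09 (SE 0.177). The 9 mitochondrial mRNAs (2 called lower in WT and 1 in WDM) summed to 1923 to 4147 CPM in WT and 1146 to 3793 CPM in WDM without arsenite, and to 516 to 1387 and 961 to 1593 CPM with it. Of the 6 nuclear RNAs tested, 4 were called lower in WT and 2 in WDM. Their part in these results was not tested.

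The falls of EWSR1 and TAF15 in WT granules were called in all 12 alternative fits, and the other calls were less stable. TARDBP in WT lost its call without tetracycline replicate 2 or 3 or arsenite replicate 1 or 3 (edgeR adjusted p 0.0541 to 0.0696). In WDM, EWSR1 lost it without tetracycline replicate 2 or arsenite replicate 3 (0.0533 and 0.0542), TARDBP without arsenite replicate 2 (0.111), and TAF15 without tetracycline replicate 1 or arsenite replicate 1 or 3 (0.175, 0.072 and 0.097), with library size alone (0.0679) or without the low-count filter (0.0827). HNRNPA2B1 in WDM kept its call in the 6 alternatives that used all replicates, and of the 6 fits that left out a library only without arsenite replicate 1 (otherwise 0.0595 to 0.219). HNRNPDL in WDM kept its call with RLE factors and without tetracycline replicate 1 or arsenite replicate 2. It lost it in the other 4 fits that left out a library (0.146 to 0.185), and it lost its call with the replicate number as a block (log2 -0.44, edgeR adjusted p 0.0685) and in 4 other fits (0.0529 to 0.0856).

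**Figure D4:**
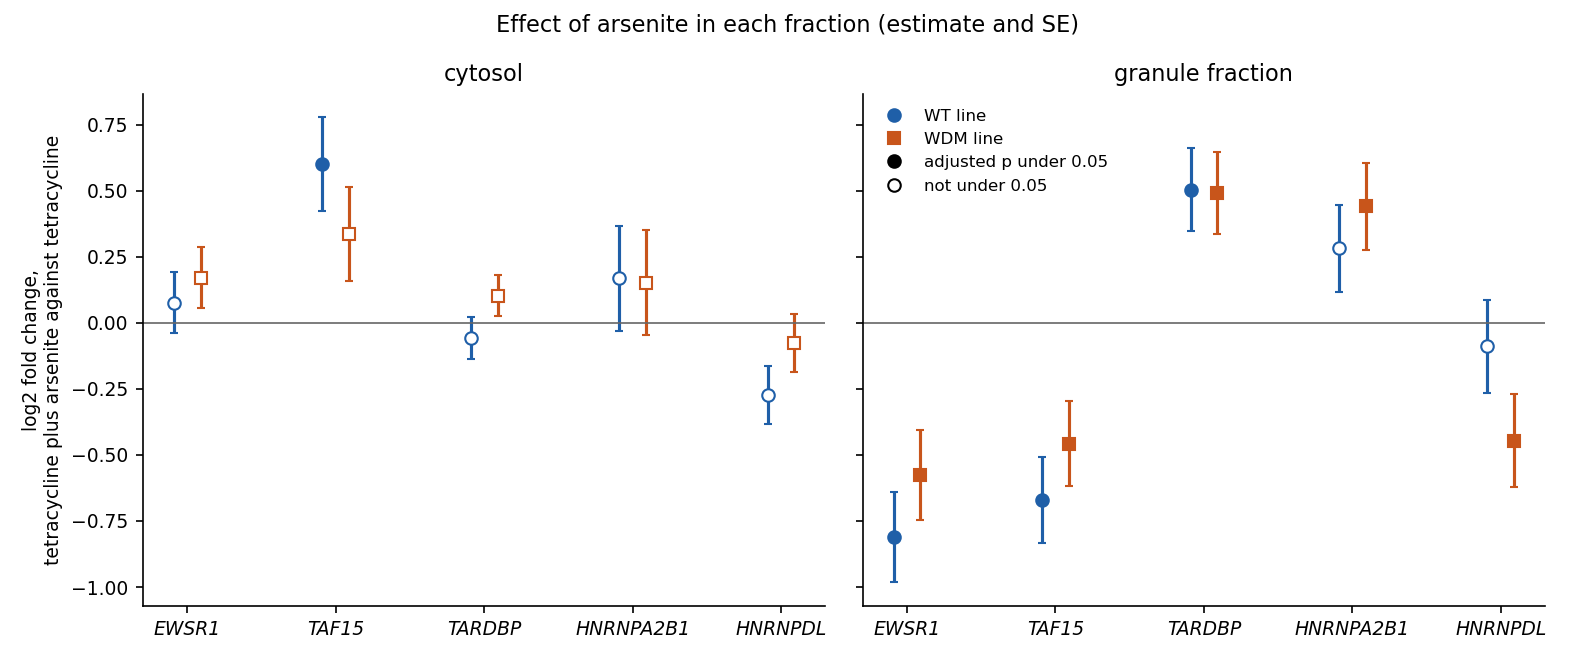
Log2 fold change of tetracycline plus arsenite against tetracycline alone (vertical axis) for each counted gene in cytosol (left) and in the granule fraction (right). Points are edgeR estimates and whiskers SE, filled where the adjusted p is under 0.05; EWSR1 lies at 0.08 and 0.17 in cytosol and at -0.81 and -0.58 in granules.

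In cytosol TAF15 rose with arsenite in WT, the 1 gene called of 5, where 29% of 16670 genes tested were called, and in WDM 0 of 5 were called in edgeR (and 0 in DESeq2), against 28.8% of all genes. TAF15 went in WT from 67.8, 42.4 and 39.7 CPM to 86.3, 86.5 and 75.5 CPM, with no overlap (log2 0.60, SE 0.179, edgeR adjusted p 0.0203). In WDM it went from 69.9, 41.2 and 74.0 CPM to 94.8, 76.8 and 77.1 CPM, also with no overlap, and was not called (log2 0.34, SE 0.177, edgeR adjusted p 0.164). Untreated cells had 63.2, 61.6 and 62.8 CPM of TAF15 in WT and 70.4, 86.2 and 75.7 CPM in WDM. EWSR1 was at log2 0.08 (SE 0.114) in WT and 0.17 (SE 0.115) in WDM, TARDBP at -0.06 and 0.10 (SE 0.0781 and 0.0782), and HNRNPA2B1 at 0.17 and 0.15 (SE 0.199 in both). HNRNPDL was at -0.27 (SE 0.11, edgeR adjusted p 0.0649) in WT and -0.08 (SE 0.11) in WDM. With the replicate number as a block it was called in WT (log2 -0.27, edgeR adjusted p 0.0293). For WDM the edgeR test gave 0 members an unadjusted p under 0.05.

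Among the tetracycline-treated cytosol libraries single ones stood apart. In WT, replicate 1 had 293 CPM of HNRNPA2B1 against 149 and 163 CPM in the others, 67.8 CPM of TAF15 against 42.4 and 39.7, and the highest nuclear RNA sum of the group. In WDM, replicate 2 was low in both genes, with 175 CPM of HNRNPA2B1 against 313 and 250 CPM, and had the lowest nuclear RNA sum. EWSR1 went the other way, with its lowest value of the WT group, 392 CPM, in replicate 1 and its highest value of the WDM group, 442 CPM, in replicate 2. Without WT tetracycline replicate 1 the arsenite comparison called 3 genes, TAF15 (log2 0.85), HNRNPA2B1 (0.49, edgeR adjusted p 0.0108) and HNRNPDL (-0.40, edgeR adjusted p 0.0033). That fit called 7207 genes in all, against 4832 in the fit of all libraries. TAF15 lost its call without tetracycline replicate 2 or 3 or arsenite replicate 1 or 2 (log2 0.48 to 0.58, edgeR adjusted p 0.0607 to 0.102), or with only the groups compared (0.0545). The part of the nuclear RNA level in these values was not tested.

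**Figure D5:**
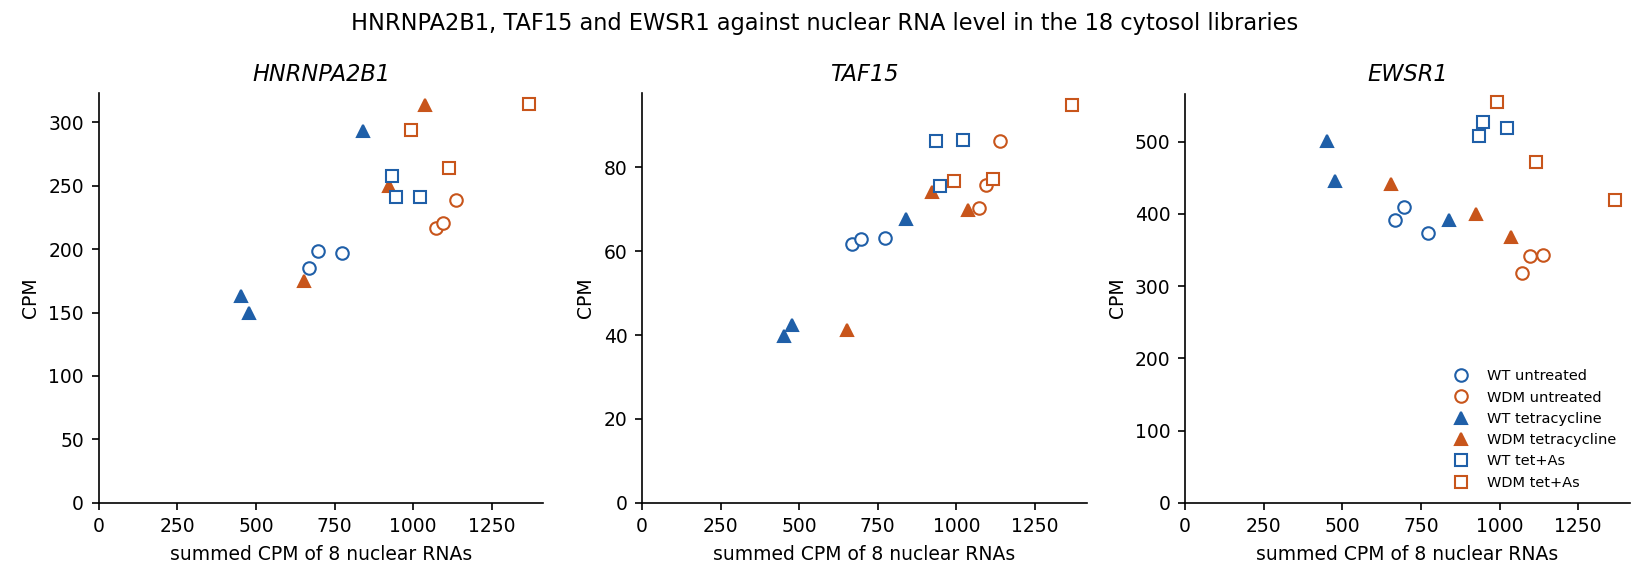
CPM of HNRNPA2B1, TAF15 and EWSR1 (vertical axes) against the summed CPM of 8 nuclear RNAs (horizontal axes) in the 18 cytosol libraries. Each point is 1 library, coloured by line and shaped by treatment; among filled triangles (tetracycline alone) the WT library with 839 CPM of nuclear RNAs has 293 CPM of HNRNPA2B1, and those with 478 and 451 CPM have 149 and 163 CPM.

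Tetracycline, given to switch the transgene on, was compared with no treatment in cytosol. TIA1 itself had 3 counts over all libraries, with 99.89% of its span inside C2orf42 on the same strand. The level of the transgene was therefore not read from these counts. None of the 5 genes was called in edgeR or in DESeq2, in WT against 5.31% of all genes and in WDM against 6.3%. EWSR1 was at log2 0.23 (SE 0.115, edgeR adjusted p 0.239) in WT and 0.30 (SE 0.115, edgeR adjusted p 0.135) in WDM, where its unadjusted p was 0.0179. TAF15 was at -0.29 (SE 0.181) and -0.31 (SE 0.178). Without WT tetracycline replicate 1 both were called in WT, at 0.35 (edgeR adjusted p 0.0446) and -0.53 (edgeR adjusted p 0.0424), while the genes called rose from 886 to 1765. Among these 10 tests, 1 had an unadjusted p under 0.05.

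Tetracycline plus arsenite was compared with untreated cytosol as well. EWSR1 was higher in both lines and HNRNPDL lower in WT. This made 2 of 5 genes in WT, where 32.3% of all genes were called, and 1 of 5 in WDM, where 39.1% were. EWSR1 went in WT from 373, 391 and 410 CPM to 508, 518 and 527 CPM (log2 0.31, SE 0.115, edgeR adjusted p 0.0434). In WDM it went from 318, 343 and 342 CPM to 419, 555 and 472 CPM (log2 0.47, SE 0.115, edgeR adjusted p 0.00342), and the groups did not overlap in either line. HNRNPDL went in WT from 394, 405 and 394 CPM to 323, 336 and 366 CPM (log2 -0.31, SE 0.11, edgeR adjusted p 0.0352), without overlap. TAF15 was not called, at log2 0.31 (SE 0.179, edgeR adjusted p 0.195) in WT and 0.03 (SE 0.176, edgeR adjusted p 0.906) in WDM. The WDM call of EWSR1 was made in all 12 alternative fits. In WT, EWSR1 lost its call in each of the 6 fits that left out a library (edgeR adjusted p 0.068 to 0.142), and HNRNPDL in all but the fit without arsenite replicate 3 (0.0659 to 0.126) and with library size alone (0.0688). When only these 6 libraries were fitted, TAF15 (log2 0.34, edgeR adjusted p 0.000309) and HNRNPA2B1 (0.28, 0.000158) were called in WT as well, with 7612 genes called against 5390.

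The lines were compared in each fraction and treatment, which asks whether the mutant transgene goes with other RNA levels of these genes. No member was called in any of the 5 comparisons by edgeR or by DESeq2. The share of all genes called was 9.78% in untreated cytosol, 12.6% with tetracycline and 10.4% with arsenite, and in granules 5.55% with tetracycline and 7.95% with arsenite. Over these 25 tests the log2 fold changes of WDM against WT ran from -0.26 to 0.27 with SE of 0.0779 to 0.2, and 1 had an unadjusted p under 0.05. That was EWSR1 in untreated cytosol, with 318, 343 and 342 CPM in WDM and 373, 391 and 410 CPM in WT (log2 -0.26, SE 0.115, edgeR adjusted p 0.163). TAF15 (log2 0.27, SE 0.179) and HNRNPA2B1 (0.19, SE 0.2) were higher in every untreated WDM library than in any WT library, and not called. HNRNPDL was lower in every untreated WDM library than in any WT library (log2 -0.07, SE 0.11), and not called. When only these 6 libraries were fitted, EWSR1 (edgeR adjusted p 6.55e-05), TAF15 (0.00124) and HNRNPA2B1 (0.00405) were called with log2 fold changes of -0.27, 0.27 and 0.18, in a fit that called 5463 genes against 1631 in the fit of all cytosol libraries. With tetracycline in cytosol, leaving out WT replicate 1 gave calls for EWSR1 (log2 -0.32, edgeR adjusted p 0.0348), TAF15 (0.50, 0.0282) and HNRNPA2B1 (0.56, 0.00875), and leaving out WDM replicate 2 gave 1 for TAF15 (0.47, 0.0312). These fits called 4571 and 2762 genes, against 2099 with all libraries. HNRNPA2B1 in arsenite cytosol (log2 0.23) and TAF15 in arsenite granules (0.26) were also higher in WDM without overlap, and not called. The share of all genes whose groups do not overlap was not counted, here or elsewhere in the report.

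Interaction tests of the line with the response or the enrichment called no member in edgeR or in DESeq2. Over the 25 tests the values ran from -0.36 to 0.29 on the log2 scale with SE of 0.111 to 0.282, the smallest edgeR adjusted p was 0.558, and 0 had an unadjusted p under 0.05. Of all genes 0.018% were called for tetracycline in cytosol, 0% for arsenite in cytosol and 0% for arsenite in granules. For granule enrichment the share was 0.00551% with tetracycline and 0.00551% with arsenite. The arsenite interactions thus called 0 genes in edgeR and 0 in DESeq2, with 332 genes in cytosol and 2329 in granules at an unadjusted p under 0.05.

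Related genes were counted from a pair of lists. The first held hnRNP and other genes, grouped as other prion-like RNA-binding protein genes (32 listed, 28 tested). Whether each of them encodes a prion-like domain or binds RNA was not checked. The second held nuclear import receptors and arginine methyltransferases (12 listed), which include carriers and modifiers of FET and hnRNP proteins. Of the first list, 6 were called higher and 13 lower in granules than in cytosol in tetracycline-treated WT cells, and 7 and 13 in WDM. With arsenite the numbers were 4 and 13, and 3 and 13. The medians of the list ran from -0.32 to -0.05 over these 4 comparisons, and those of all genes from 0.02 to 0.07. Between the fractions with arsenite, HNRNPC (log2 -1.39 in WT and -1.5 in WDM) had the largest called decrease of the list and RBM33 (1.05 and 0.96) the largest called increase. With arsenite in granules 5 of the list rose and 3 fell in WT, and 7 rose and 6 fell in WDM. Of all genes tested, 30.6% in WT and 36.3% in WDM were called there. HNRNPA0, an hnRNP of the A family, rose most of the list (log2 1.13 and 0.87). Of the second list, 4 were called higher and 5 lower in granules with tetracycline in WT, 4 and 4 in WDM, and 5 and 4, and 2 and 6, with arsenite (medians -0.18 to 0.12). For granules against cytosol, the shares of both lists are to be read beside the 75.7%, 71.1%, 70.5% and 72% of all genes called. PRMT1, the main asymmetric arginine methyltransferase, had the largest called decrease, at log2 -2.16 and -1.84 with tetracycline and -2.64 and -2.46 with arsenite in WT and WDM. TNPO1, an import receptor of hnRNP A1, rose in WT granules with arsenite from 637, 459 and 486 CPM to 1373, 984 and 972 CPM (log2 1.11, SE 0.195, edgeR adjusted p 0.000161). In WDM it was not called (log2 0.36, SE 0.193, edgeR adjusted p 0.147), and the lines' responses did not differ at the threshold (interaction -0.75, SE 0.273, edgeR adjusted p 0.28).

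Over the 10 group means, the genes with a level pattern most like each member were ranked by Pearson's r of log2 CPM among 10386 genes with a mean of at least 10 CPM. The groups share fractions and treatments, so r is given as a description. For HNRNPDL these were SDHB, PRDX6 and NACA (r 0.998 each), for EWSR1 UTP14A (0.989), CHTOP (0.986) and PPHLN1 (0.986), and for TAF15 SFI1 (0.99), DZIP1L (0.984) and NBPF8 (0.983). HNRNPA2B1 was most like UBE2H (0.978), ARID3B (0.976) and SIK1 (0.969), and TARDBP most like SOWAHC (0.948), DUSP4 (0.947) and RBM23 (0.946). Among the members themselves r ran from -0.755 (HNRNPA2B1 and HNRNPDL) to 0.824 (EWSR1 and HNRNPDL), so the 5 genes did not share 1 pattern.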

How the data were processed

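RNA was measured by stranded total RNA sequencing after rRNA removal in 30 libraries, 18 of cytosol and 12 of the granule fraction. The deposited values are raw whole-number counts for each gene, in a single table made by the authors; the submitters' processing notes name Trimmomatic, STAR, Picard, featureCounts and GRCh38, without versions, and the counting settings are not given in the sources used here. Groups came from the sample titles. CPM are counts divided by the library total. Tests used edgeR 4.0.16 in R 4.3.3 (filterByExpr with minimum count 10 and minimum total 15, TMM factors, robust quasi-likelihood), in 3 fits: 18 cytosol libraries (16670 genes, biological coefficient of variation 0.103), 12 granule libraries (18366, 0.161), and the 24 libraries of tetracycline-treated cells for both fractions (18141, 0.145). There were 24 comparisons, 17 between pairs of groups and 7 interactions, with Benjamini-Hochberg adjustment within each comparison. SE is the absolute log2 fold change divided by the square root of F. On simulated counts, 82% of changes of 0.75 (log2) were recovered for arsenite in WT cytosol (16361 genes) and 64% in WT granules (18025 genes). These runs had 8 and 11 false calls. Each run changed 100 genes by 0.75 and 100 by 1.5, and no others. In the data 29% and 30.6% of genes were called in these comparisons, so the share recovered there may differ. Smaller changes, such as those of members between the lines (log2 -0.26 to 0.27), were not simulated, nor were single outlying libraries.

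The members and lists were chosen with earlier results of these data known. Genes were named as members, as list genes (the largest called change in each direction of the first 2 lists), as head-to-head neighbours within 1000 bases, as copies, and as the 3 most similar genes. Spans, exons and coding sequence came from GENCODE release 44 and GRCh38; 60463 of 60664 identifiers matched, 56656 with the same start and end. Alternatives were library size alone, RLE factors, leaving the low-count filter out, the replicate number as a block, only the groups compared, DESeq2 1.42.0 and each library left out. Same-numbered libraries correlated over 0.1 in all 3 pairs in 5 of 17 compared pairs of groups, and the blocked value stands in the report for those where it changed a call. Figures were drawn with matplotlib 3.10.9 and tables made with pandas 2.3.3 and numpy 2.4.6 under Python 3.11.15. Some items withheld from the text are not reported here.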

Additional observations from a re-analysis of the deposited data

Results flagged for a closer look

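The effect of arsenite differed between the granule fraction and cytosol for a pair of genes, by a test of the difference itself in edgeR. EWSR1 had a difference of -0.998 (log2, granule minus cytosol; edgeR adjusted p 0.00232) in WT and -0.834 (edgeR adjusted p 0.0114) in WDM. In WT every arsenite library was lower than every other library in granules and higher in cytosol. TAF15 had a difference of -1.375 (edgeR adjusted p 0.000252) in WT and -0.871 (edgeR adjusted p 0.0132) in WDM, and in both lines its granule values fell and its cytosol values lay higher with arsenite, without overlap. Over all genes 31.4% were called in WT and 24.1% in WDM, with medians of -0.21 and -0.17. In WDM the EWSR1 call was lost without arsenite cytosol replicate 2 (edgeR adjusted p 0.0564) and the TAF15 call without tetracycline cytosol replicate 2 (0.0558). Both results share the tetracycline-treated cytosol libraries, whose TAF15 levels ran from 39.7 to 74.0 CPM. Against untreated cytosol, TAF15 with tetracycline plus arsenite was not called, at log2 0.31 (edgeR adjusted p 0.195) in WT and 0.03 (edgeR adjusted p 0.906) in WDM. Each library was left out in turn, but no rule was applied to mark or remove single outlying libraries in these groups of 3.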

How the results depend on the processing

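No called value changed sign. Of 1650 fold changes of members recomputed under an alternative, 1576 kept their side of the threshold, 50 lost a call and 24 gained one. The numbers of members called that moved by more than 1.5 times were as follows, and smaller moves are left out. For arsenite in WDM granules 5 became 3 with library size alone, 3 without the low-count filter and 1 to 3 when a library was left out. For arsenite in WT cytosol 1 became 0 with only the groups compared and 0 to 3 when a library was left out. Tetracycline plus arsenite against untreated WT cytosol went from 2 to 1 with library size alone, 4 with only the groups compared and 0 to 1 when a library was left out, and in WDM from 1 to 2 with only the groups compared. Fitting only the groups compared gave 3 for the lines in untreated cytosol. Leaving out a library gave 0 to 2 for tetracycline in WT cytosol, 0 to 3 for the lines with tetracycline in cytosol, and 1 to 2 for the change of enrichment in WDM.

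With the replicate number as a block, arsenite in WT cytosol called 2 members and tetracycline in WDM cytosol 1 (EWSR1, edgeR adjusted p 0.0485), although same-numbered libraries of the last pair of groups did not correlate. Over the compared pairs of groups the correlation ran from -0.402 to 0.818 (median 0.152), and 14 of 30 libraries correlated best with their own number.

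With only the groups compared, counts over all genes went from 886 to 220 (tetracycline, WT), 4832 to 2734 and 4805 to 1920 (arsenite in cytosol, WT and WDM), 1631 to 5463 (lines, untreated) and 2099 to 852 (lines, tetracycline cytosol). Leaving out 1 library gave 189 to 1765 and 422 to 773 for tetracycline (WT and WDM), 2439 to 7207 and 2492 to 5246 for arsenite in cytosol, and 3157 to 5418 for arsenite in WT granules. For the lines it gave 930 to 1209 (untreated), 1209 to 4571 (tetracycline cytosol, the highest without WT replicate 1), 1094 to 2205 (arsenite cytosol), and 571 to 1330 and 569 to 1719 in granules, where the full fits had 1019 and 1460 (1050, 5620 and 1726 for tetracycline in WDM, arsenite in WT granules and lines in arsenite cytosol). The tetracycline interaction had 3 genes, 14 without the low-count filter, 6 with the block and 11 in DESeq2, and the arsenite interaction in granules 44 without the filter. With library size alone the median of all genes for arsenite in WT cytosol was 0.11 rather than -0.02, and the share of calls that were rises 76.5% rather than 47.2% (WDM 66.6% and 48.8%, against untreated WT 64.3% and 47.1%, tetracycline in WT 44.1% and 55.1%, lines in arsenite granules 66.0% and 51.7%). Members with counts had at least 446 in every library, and HNRNPA1 had 0.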

Other observations

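Of the 6 genes, 5 have a gene on the other strand that starts within 1000 bases of their own start, an arrangement found for 26.6% of 20046 protein-coding genes of GENCODE release 44. CBX3, which encodes a heterochromatin protein and starts 367 bases from HNRNPA2B1, had group means of 325 to 386 CPM in cytosol and 67.6 to 108 CPM in granules, while HNRNPA2B1 had 194 to 291 and 252 to 357 CPM. CBX5, 60 bases from HNRNPA1, had 179 to 311 CPM in cytosol and 300.2 to 624 CPM in granules. ENOPH1, 128 bases from HNRNPDL, was low in granules like its neighbour, with 25.6 to 31.7 CPM against 71.0 to 89.1 CPM in cytosol. RHBDD3, 200 bases from EWSR1, had 34.2 to 43.0 CPM in granules and 59.3 to 74.2 CPM in cytosol, where the WT granule means were 39.3 CPM without and 34.2 CPM with arsenite. The neighbour of TAF15, 585 bases away, is an unnamed lncRNA gene with 67 counts in all. Differences between neighbours were not tested.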
